A study of Mus musculus with 6 samples.

Results

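The genes described here are the 10 mouse genes that make polyamines, hold their synthesis in check and break them down. They were taken by name from a table of 22770 gene rows, and all 10 were found in it. Odc1, Amd1, Srm and Sms encode the enzymes of synthesis. Oaz1, Oaz2 and Oaz3 encode the antizymes, Azin1 and Azin2 the antizyme inhibitors, and Paox the polyamine oxidase of peroxisomes. RNA was measured in bulk libraries of round spermatids, the haploid cells that follow meiosis in the testis, sorted by flow cytometry from mice at postnatal day 28, when most such cells had reached step 8 of spermatid development. There were 3 libraries of the genotype named Eif5a SKO and 3 of wild type. The labels do not expand SKO (the table's columns read cKO), and the sources used here do not give the promoter or Cre that removes Eif5a, the strain, or whether each library came from a mouse of its own, so the p-values measure the spread between libraries. Polyadenylated RNA was amplified by the Smart-seq2 method, which carries no molecular identifiers here, and sequenced.

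Putrescine, spermidine and spermine are small positively charged molecules that bind nucleic acids and are needed for growth and for sperm formation. ODC1 makes putrescine from ornithine, AMD1 supplies the aminopropyl donor, SRM turns putrescine into spermidine and SMS turns spermidine into spermine. Antizymes bind ODC1 and hold it in check, some of them by sending it to the proteasome. Antizyme inhibitors, which resemble ODC1 without its activity, take antizymes away from it. Spermidine also donates the part of its chain that becomes hypusine, an amino acid that mature EIF5A carries, so the pathway feeds the protein whose gene is removed in SKO.

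Antizymes share a form of control at translation. Their messages hold a first reading frame that ends in a stop codon, and polyamines favour a shift of the ribosome by a single base that lets it read on. The 60 bases around that site were read from the GENCODE M21 transcripts (GRCm38) because the 3 antizyme messages are compared throughout. Capitals mark the last codon of the first frame and the stop codon after it, and the skipped base is the first T of the stop.
Oaz1: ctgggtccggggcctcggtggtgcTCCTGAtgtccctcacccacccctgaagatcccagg
Oaz2: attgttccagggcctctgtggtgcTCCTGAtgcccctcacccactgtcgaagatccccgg
Oaz3: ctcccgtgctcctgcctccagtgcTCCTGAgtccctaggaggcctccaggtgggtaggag
The 6 capital bases are the same in all 3 messages. Compared position by position over the whole window, Oaz2 shares 49 of 60 bases with Oaz1, whereas Oaz3 shares 21 with Oaz1 and 21 with Oaz2. No gaps were allowed, so a like stretch that is offset by a base counts as different. The first frame holds 68 codons in Oaz1, 32 in Oaz2 and 86 in Oaz3, and 159, 157 and 157 codons follow the shift. The skipped base lies at position 80828295 of chromosome 10 for Oaz1 (plus strand), 65686272 of chromosome 9 for Oaz2 (plus strand) and 94436034 of chromosome 3 for Oaz3 (minus strand). Runs of proline codons, at which ribosomes are known to need EIF5A, were also counted. None of the 10 members' annotated coding sequences holds 3 proline codons in a row, and 21.66% of 13687 coding genes of the table do. The longest run is 2 codons in Odc1, Sms, Oaz1, Oaz3 and Paox. With only 10 genes, the absence of a longer run is no result about the members, and other sites of EIF5A action were not counted. The sequences describe the messages, and the RNA counts below say nothing of how they were translated.

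The libraries held 52055193 to 60970931 counts, with 21177 to 22006 genes detected. Eif5a stood at 6.88, 6.27 and 5.35 CPM in SKO and at 701, 616 and 662 CPM in wild type. CPM is a gene's count scaled to the effective library size. Marker counts are calls by the test described below, which called 21.2% of all genes tested as higher and 20.9% as lower in SKO. Of 8 round spermatid markers, 5 were higher in SKO and none lower, with summed levels of 5305 to 5820.2 CPM in SKO and 3417 to 3705 CPM in wild type. Of 10 Sertoli cell markers listed, 5 were analysed (Clu, Cst9, Cst12, Aard and Defb36) and all 5 were higher in SKO; they summed to 164, 94.5 and 44.8 CPM in SKO 1, 2 and 3 and to 2.11, 4.48 and 9.06 CPM in wild type 1, 2 and 3, with Cst12 at 0 in wild type 1. Of 6 Leydig cell markers 3 were higher, with sums of 44.6, 8.02 and 34.4 CPM in SKO and 1.26, 1.45 and 21.6 CPM in wild type, and Insl3 was at 0 in wild type 1 and 2. Of 8 elongating spermatid markers 5 were higher, with sums of 5894 to 6438 CPM in SKO and 3929.5 to 4429 CPM in wild type. Of 8 spermatocyte markers 3 were higher and 1 lower (818 to 959.9 CPM in SKO, 801 to 822 CPM in wild type), and of 4 spermatogonium markers tested 2 were lower (21.4 to 23.6 CPM in SKO, 26.7 to 29.8 CPM in wild type). Of 3 peritubular or endothelial markers tested 1 was higher (50.0 to 68.3 CPM in SKO, 5.62 to 23.6 CPM in wild type), and of 4 macrophage markers tested 1 was higher and 1 lower (1.94 to 7.35 CPM in SKO, 3.99 to 4.81 CPM in wild type). The part of other cells in the values below was not tested, and in bulk samples fewer cells of a type and less RNA per cell cannot be told apart. SKO 3 stood apart from SKO 1 and SKO 2, where a chi-square statistic divided by its degrees of freedom was 149 and 144, against 14.8 to 38.7 for the other pairs of replicates.

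Srm, Oaz3 and Azin1 rose in SKO, Paox fell, and the other 6 members did not pass the test. Calls rest on edgeR's quasi-likelihood test with a Benjamini-Hochberg adjusted p under 0.05 over all 19776 genes tested. All 10 members passed the filter on low counts. The 4 called members are to be read against a table in which 42.0% of all genes tested were called, 21.2% as higher and 20.9% as lower in SKO, so the number of calls is no result about these genes. Fold changes were positive for 9 of 10 members and for 9985 of all 19776 genes tested, with medians of 0.36 and 0.01 on the log2 scale. The count of positive members depended on scaling: by library totals alone, Odc1 (-0.01), Amd1 (-0.07) and Azin2 (-0.18) were negative. The 3 SKO values lay wholly above or below the 3 wild-type values for 6 members, and for 55.6% of all genes. Without SKO 3, the library that stood apart, the log2 fold changes were 1.01 for Srm (adjusted p = 0.00207), 0.67 for Oaz3 (0.000128), 0.44 for Azin1 (0.0270) and -3.65 for Paox (0.000224), and Sms was also called. Together the 10 genes took 0.174, 0.177 and 0.184% of the counts in SKO libraries and 0.152, 0.164 and 0.151% in wild-type libraries. The fold changes rest on TMM scaling, whose factors were 0.8842 to 0.9705 in SKO and 1.0769 to 1.0986 in wild type; scaling by library totals alone called 43.0% of genes, 2831 as higher and 5666 as lower in place of 4185 and 4127, and moved the median of all genes to -0.23.

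**Figure D1:**
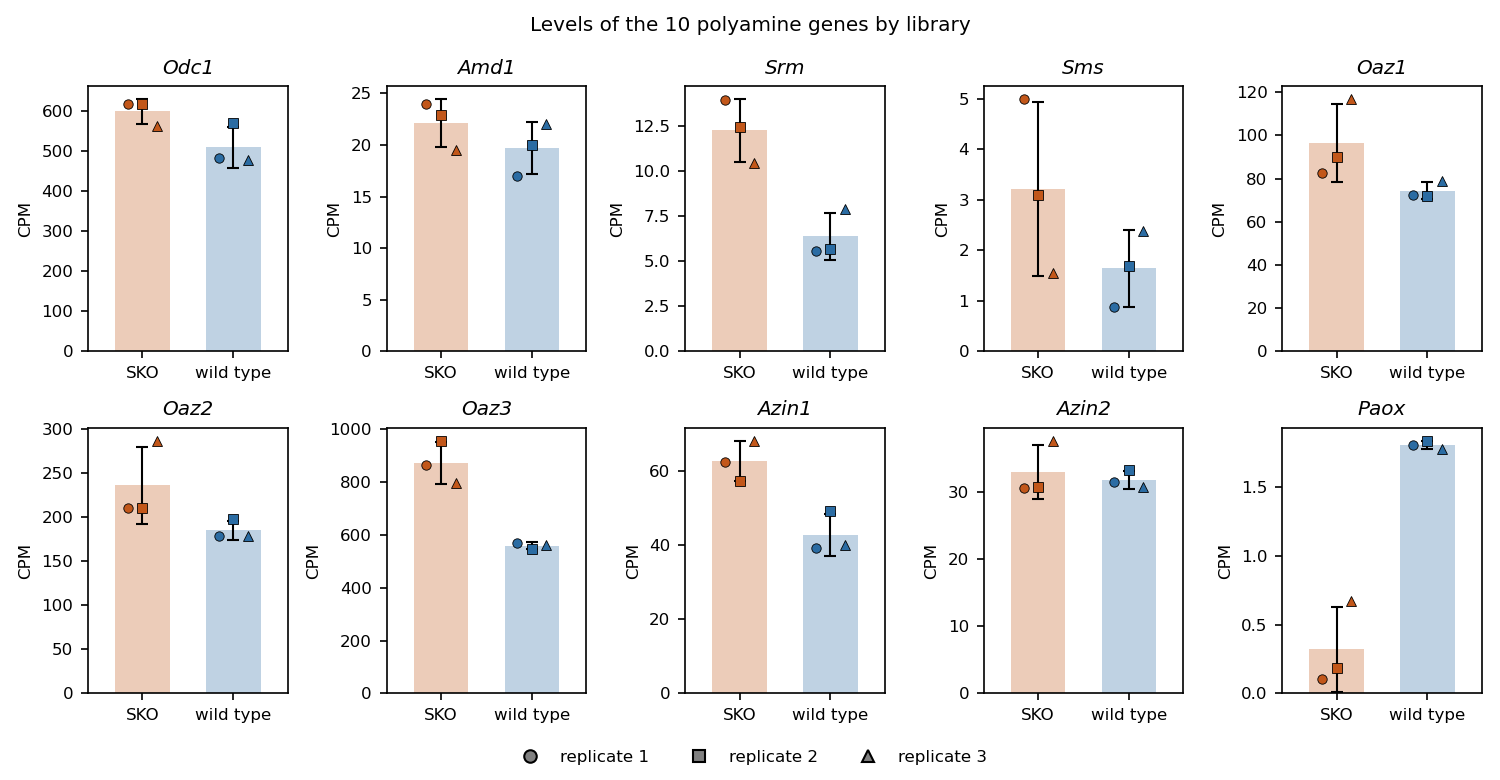
Level of each of the 10 genes in CPM, with SKO on the left and wild type on the right of each panel; points are libraries, bars are means and whiskers are SD (n = 3). The 3 SKO points lie above the wild-type points for Srm, Oaz1, Oaz2, Oaz3 and Azin1 and below them for Paox, and they overlap for Odc1, Amd1, Sms and Azin2.

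Levels were compared between genes per kilobase of the transcript with the longest coding sequence, so they depend on that choice of transcript. Oaz3 was the most abundant member in both groups, at 933 ± 86.3 CPM per kb in SKO and 598 ± 12.6 CPM per kb in wild type (SD, n = 3 here and throughout). Odc1 came next, at 271 ± 14.2 CPM per kb in SKO and 231 ± 23.2 CPM per kb in wild type. Oaz2 (128 ± 23.7 in SKO, 101 ± 5.97 in wild type) and Oaz1 (92.7 ± 17.6 in SKO, 71.2 ± 3.65 in wild type) followed, in CPM per kb. These 4 stood well apart from the rest. Azin2 and Azin1 averaged 16.0 ± 1.94 and 12.9 ± 1.12 CPM per kb in SKO, and 15.4 ± 0.609 and 8.78 ± 1.14 CPM per kb in wild type. Below them came Srm and Amd1, at 9.14 ± 1.32 and 6.92 ± 0.728 CPM per kb in SKO and 4.76 ± 0.974 and 6.14 ± 0.778 CPM per kb in wild type. Sms and Paox were lowest, with SKO means of 0.866 ± 0.463 and 0.0689 ± 0.0662 CPM per kb and wild-type means of 0.443 ± 0.205 and 0.389 ± 0.00665 CPM per kb. In SKO no neighbours in this order shared part of their range, although the highest Oaz1 library (113) came close to the lowest Oaz2 library (114). In wild type Srm and Amd1 overlapped, as did Sms and Paox.

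**Figure D2:**
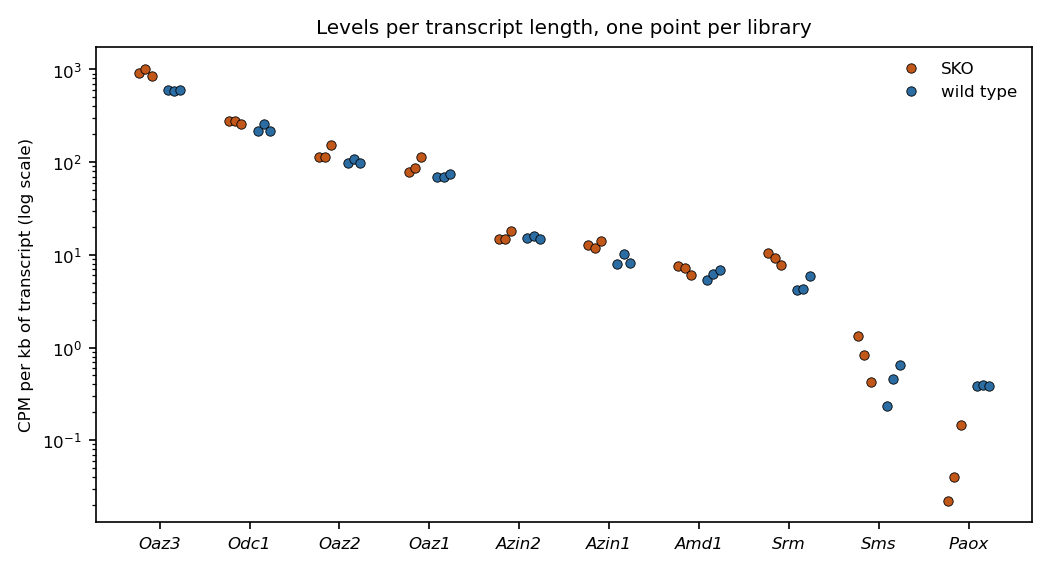
Level of each member per kilobase of transcript on a log scale, with 1 point per library, SKO to the left of wild type. Oaz3, Odc1, Oaz2 and Oaz1 lie above 60 CPM per kb in every library, and Sms and Paox lie below 1.4 CPM per kb.

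Odc1, the first enzyme gene of the pathway (chromosome 12, 17544794 to 17551505, plus strand, 12 exons), had 618, 617 and 563 CPM in SKO, against 482, 569 and 478 CPM in wild type. The lowest SKO library fell just under the highest wild-type library, and the log2 fold change of 0.23 ± 0.12 (SE; 95% interval -0.04 to 0.51) did not pass the test (adjusted p = 0.158). Correcting each library for transcript length and GC content, a setting that called 41.9% of all genes, gave Odc1 a called value of 0.51 (adjusted p = 0.00303), whereas library totals alone gave -0.01. Within the summed synthesis genes, Odc1 made up 93.6, 94.2 and 94.7% of the CPM per kb in SKO and 95.7, 95.9 and 94.2% in wild type, with overlapping groups.

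Amd1 (chromosome 10, 40287458 to 40302186, minus strand), whose product decarboxylates S-adenosylmethionine to make the aminopropyl donor, also had overlapping groups. Its levels were 24.0, 22.9 and 19.5 CPM in SKO and 17.0, 20.0 and 22.0 CPM in wild type. The log2 fold change was 0.17 ± 0.16 (95% interval -0.19 to 0.53; adjusted p = 0.422), and -0.07 under library totals. Its near-identical copy Amd2 was at 0.937 ± 0.315 CPM in SKO and 0.838 ± 0.423 CPM in wild type, and adding the reads of Amd2 and of 2 listed pseudogenes to Amd1 left the value at 0.15.

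Srm was the synthesis gene that rose. Srm (chromosome 4, 148591503 to 148594993, plus strand, 7 exons) had 13.9, 12.4 and 10.4 CPM in SKO, from 673, 668 and 524 counts, and 5.55, 5.68 and 7.87 CPM in wild type, from 326, 333 and 491 counts. Every SKO library exceeded every wild-type library, and the nearest pair was SKO 3 and wild type 3. Srm was 1.92-fold higher in SKO, a log2 fold change of 0.94 ± 0.20 (adjusted p = 0.00492), and it kept its call under all 15 alternatives, from 0.70 to 1.12. Both adjacent genes were lower in SKO. Exosc10, which encodes a nuclease of the RNA exosome and ends 9102 bases before Srm, averaged 33.6 ± 13.0 CPM in SKO and 61.4 ± 14.7 CPM in wild type, and Tardbp, the gene of the RNA-binding protein TDP-43 on the other side, 26.9 ± 1.97 CPM in SKO and 37.1 ± 4.25 CPM in wild type. They were called (log2 fold changes -0.87 ± 0.27 and -0.47 ± 0.15, adjusted p = 0.0275 and 0.0321). Neither call held in full: Exosc10 lost it without SKO 2 (adjusted p = 0.0764) or wild type 2 (0.121) and under the length and GC correction (0.164), and Tardbp without SKO 1 (0.0691), wild type 1 (0.126) or wild type 3 (0.124) and with the replicate block (0.0854).

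Sms, the one X-linked member (157443855 to 157492287, minus strand), had a fold change as large as that of Srm and far wider spread. It stood at 5.00, 3.10 and 1.56 CPM in SKO, from 242, 167 and 79 counts, and at 0.869, 1.69 and 2.39 CPM in wild type, from 51, 99 and 149 counts. SKO 3 lay below 2 of the wild-type libraries. The log2 fold change was 0.96 ± 0.46 (95% interval -0.07 to 2.00; adjusted p = 0.123), and without SKO 3 it was 1.25 and passed (adjusted p = 0.0288). For comparison, 63.4% of the 740 X-linked genes tested were called higher in SKO, with a median log2 fold change of 1.31. The X-linked genes on either side of Sms differed. Phex, 28543 bases away, had 6.67 ± 0.689 CPM in SKO and 4.88 ± 1.53 CPM in wild type and did not pass (0.45 ± 0.25, adjusted p = 0.185). Mbtps2, which encodes a membrane protease and lies 43084 bases away, rose to 19.0 ± 4.76 CPM in SKO, against 9.47 ± 1.33 CPM in wild type (1.01 ± 0.22, adjusted p = 0.00476). Within each group Srm, Sms and the summed Sertoli cell markers ranked the libraries alike: SKO 1 had the highest and SKO 3 the lowest value of all 3 in SKO, and wild type 3 the highest and wild type 1 the lowest in wild type. The part of those cells in Srm and Sms was not tested.

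**Figure D3:**
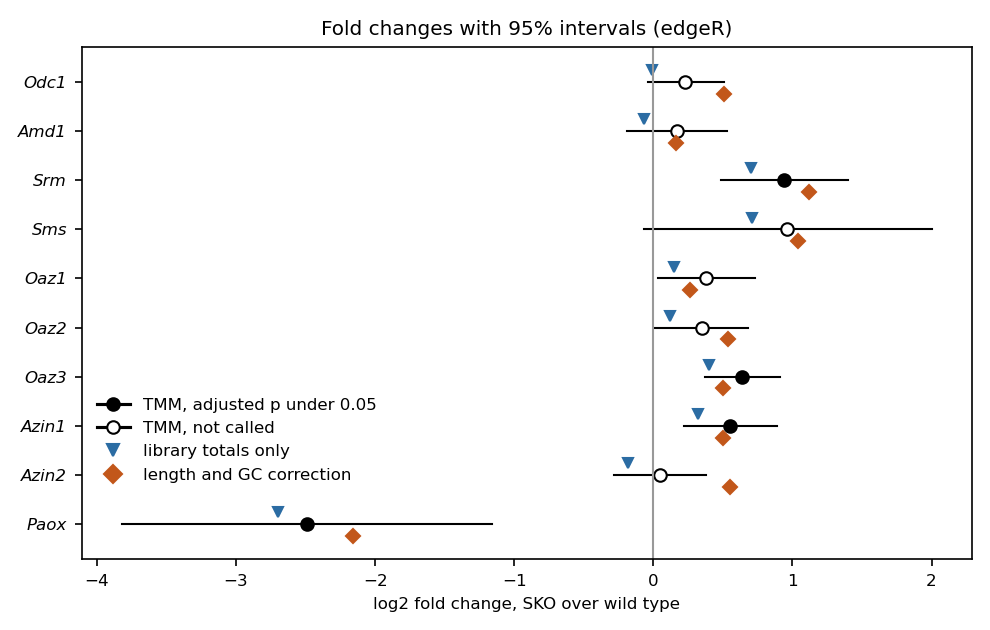
Log2 fold change of each member, SKO over wild type, with 95% intervals from edgeR with TMM scaling (circles; filled where the adjusted p is under 0.05). Triangles give the value under library totals alone and diamonds that under the length and GC correction; Paox lies far left in all 3 settings, and Odc1, Amd1 and Azin2 cross 0 under library totals.

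All 3 antizyme genes had every SKO library above every wild-type library, and Oaz3 alone passed the test. Oaz3, the antizyme of haploid male germ cells (chromosome 3, 94432414 to 94443915, minus strand, 6 exons), stood at 865, 956 and 795 CPM in SKO and at 569, 546 and 562 CPM in wild type. These levels rest on 41870, 51525 and 40158 counts in SKO and 33400, 32030 and 35064 counts in wild type. The lowest SKO library was well above the highest wild-type library. Oaz3 was 1.56-fold higher in SKO, a log2 fold change of 0.64 ± 0.12 (adjusted p = 0.00236), and it kept its call under all 15 alternatives, from 0.40 to 0.68. It ranked 198th among all genes by mean CPM in SKO and 271st in wild type.

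Oaz1 and Oaz2 encode the widely expressed antizymes. Oaz1 (chromosome 10, 80826656 to 80829290, plus strand) had 82.6, 90.2 and 117 CPM in SKO, against 72.3, 72.1 and 78.8 CPM in wild type. Oaz2 (chromosome 9, 65668001 to 65690300, plus strand) had 211, 211 and 287 CPM in SKO, against 179, 198 and 179 CPM in wild type. In both, SKO 3 was the highest library and the other SKO libraries lay closer to wild type, whereas for Oaz3 SKO 3 was the lowest of the SKO libraries. The log2 fold changes were 0.38 ± 0.16 for Oaz1 (95% interval 0.03 to 0.73; adjusted p = 0.0783) and 0.35 ± 0.15 for Oaz2 (0.01 to 0.68; adjusted p = 0.0921). Without SKO 3 they were 0.18 for Oaz1 (adjusted p = 0.194) and 0.14 for Oaz2 (adjusted p = 0.236). All 3 antizymes kept a positive value under every alternative, and Oaz2 passed under the length and GC correction (0.54, adjusted p = 0.0171). Processed copies could share reads with these genes. Oaz1-ps had 0.900 ± 0.152 CPM in SKO and 0.612 ± 0.0444 CPM in wild type, Oaz2-ps had 7.99 ± 1.41 CPM in SKO and 5.56 ± 0.551 CPM in wild type, and adding their reads left Oaz1 at 0.38 and Oaz2 at 0.35.

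Oaz3 made up most of the antizyme RNA. Its share of the summed antizyme CPM per kb was 82.7, 83.6 and 76.0% in SKO and 78.5, 76.8 and 77.7% in wild type. The groups overlapped because SKO 3 had the lowest share of all 6 libraries. Oaz2 held 11.2 ± 2.41% in SKO and 13.1 ± 0.917% in wild type, and Oaz1 8.07 ± 1.73% in SKO and 9.25 ± 0.436% in wild type. The log2 ratio of Oaz3 to Oaz1 within a library was 3.55, 3.57 and 2.92 in SKO and 3.14, 3.08 and 2.99 in wild type. Its difference of 0.27 was within the spread of the libraries (2-sided exact permutation test, p = 0.4; adjusted p = 0.667 over 5 ratios). With 3 libraries against 3, the smallest p this test allows is 0.1. The difference depended on single libraries: it was 0.49 without SKO 3 (exact permutation p = 0.1, the smallest possible), 0.17 without SKO 1 and 0.16 without SKO 2.

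Antizyme RNA was set against that of the proteins antizymes bind. The summed antizymes reached 1119, 1223 and 1118 CPM per kb in SKO and 775, 761 and 774 CPM per kb in wild type. Odc1, Azin1 and Azin2, whose products all bind antizyme, summed to 307, 306 and 287 CPM per kb in SKO and 241, 284 and 239.5 CPM per kb in wild type. The ratio of the first sum to the second, which does not depend on library scaling, was 3.64, 4.00 and 3.89 in SKO and 3.21, 2.68 and 3.23 in wild type. Each SKO library was above each wild-type library, and Oaz3 was the main part of the numerator. These values are not corrected for length and GC content. Under that correction the log2 fold changes of both sides were alike, at 0.50 for Oaz3, 0.54 for Oaz2 and 0.26 for Oaz1 against 0.51 for Odc1, 0.50 for Azin1 and 0.55 for Azin2, so the higher ratio in SKO is not one that holds under every setting. The ratio is given as a description with no test, and it is one of RNA, not of proteins made after a frameshift.

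**Figure D4:**
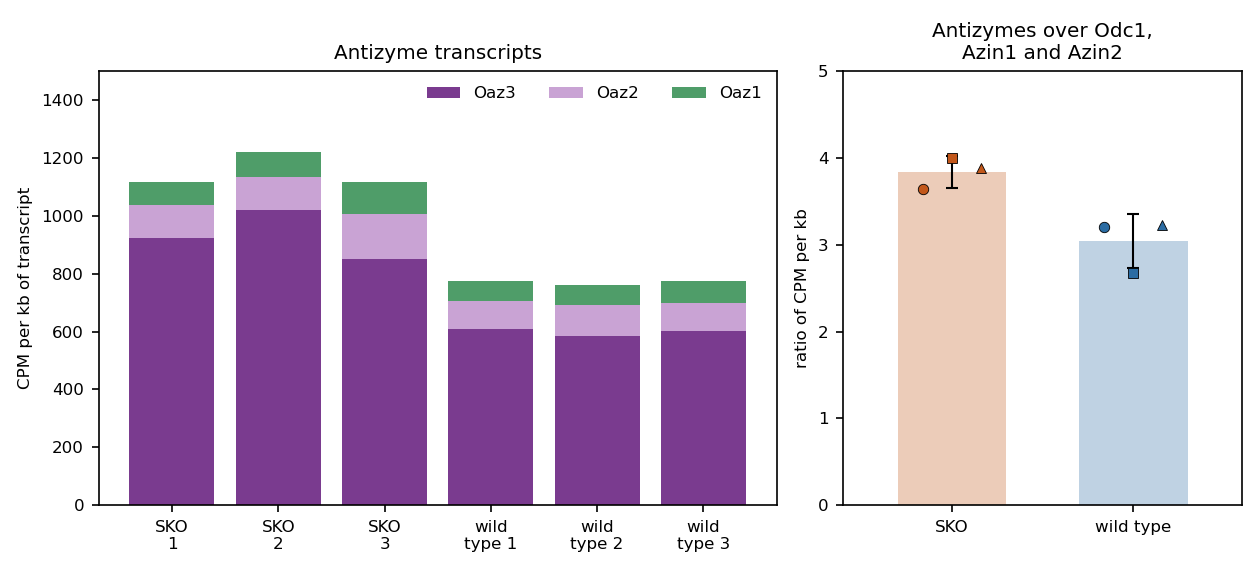
Left, summed CPM per kb of Oaz3, Oaz2 and Oaz1 in each library, SKO before wild type; right, the ratio of that sum to Odc1, Azin1 and Azin2 (points are libraries, bars are means, whiskers SD, n = 3). SKO libraries lie at 3.64 to 4.00 and wild-type libraries at 2.68 to 3.23.

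Genes that overlap Oaz3 on the other strand bear on its counts, because no source used here gives the strand setting of the counting. Tdrkh, a gene of the piRNA pathway, overlaps Oaz3 by 2255 bases and had 29.2 ± 2.44 CPM in SKO and 26.1 ± 2.14 CPM in wild type (adjusted p = 0.416). Mrpl9, of the mitochondrial ribosome, overlaps it by 598 bases and had 5.58 ± 0.904 CPM in SKO and 2.17 ± 0.859 CPM in wild type (log2 fold change 1.36 ± 0.32, adjusted p = 0.00731). The levels of both are small beside that of Oaz3, and how reads of the overlaps were split was not tested.

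Of the antizyme inhibitor genes, Azin1 rose and Azin2 did not pass the test. Azin1 (chromosome 15, 38487427 to 38519266, minus strand, 12 exons) had 62.5, 57.3 and 68.2 CPM in SKO and 39.1, 49.2 and 40.0 CPM in wild type. All SKO libraries were above all wild-type libraries. Azin1 was 1.47-fold higher in SKO, with a log2 fold change of 0.55 ± 0.15 (adjusted p = 0.0151). That call was the least firm of the 4: it was lost under library totals alone (0.32, adjusted p = 0.142), without wild type 1 (0.49, adjusted p = 0.0804) and without wild type 3 (0.50, adjusted p = 0.0683).

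Azin2, the antizyme inhibitor known for its expression in testis and brain (chromosome 4, 128930233 to 128962442, minus strand, 11 exons), had 30.6, 30.7 and 37.6 CPM in SKO and 31.4, 33.2 and 30.7 CPM in wild type. Only SKO 3 stood above the rest. The log2 fold change was 0.05 ± 0.15 (95% interval -0.28 to 0.38; adjusted p = 0.800). Its sign turned under library totals (-0.18) and without SKO 3 (-0.09), and the length and GC correction made it a called 0.55 (adjusted p = 0.00676). A noncoding gene on the other strand, Gm15904, overlaps Azin2 by 4191 bases and rose to 71.6 ± 10.1 CPM in SKO, against 32.4 ± 1.39 CPM in wild type (1.14 ± 0.15, adjusted p = 0.000355), so the split of reads between them is uncertain. The log2 ratio of Azin2 to Azin1 per kb was 0.21, 0.34 and 0.38 in SKO and 0.92, 0.67 and 0.86 in wild type. The groups did not overlap, with a difference of -0.51 (2-sided exact permutation test, p = 0.1, the smallest possible; adjusted p = 0.250). That difference was not seen under the length and GC correction, where the log2 fold changes were 0.55 for Azin2 and 0.50 for Azin1.

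Paox was the member that fell, and the one with the fewest reads. Its product oxidises acetylated spermine and spermidine and so returns them towards putrescine. Paox (chromosome 7, 140115799 to 140137224, plus strand, 7 exons) had 5, 10 and 34 counts in SKO and 106, 108 and 111 counts in wild type. Those are 0.103, 0.186 and 0.673 CPM in SKO and 1.81, 1.84 and 1.78 CPM in wild type. The wild-type libraries were nearly equal, and SKO 3, the highest of the SKO libraries, was still below all of them. The level in SKO was 0.178 of that in wild type, a log2 fold change of -2.49 ± 0.60 (95% interval -3.82 to -1.16; adjusted p = 0.00822). Without SKO 3 the value was -3.65, and over the 14 alternatives in which Paox was tested it kept its call, from -3.65 to -2.10. A filter of 5 CPM in 3 libraries removed the gene. Mtg1, the gene of a mitochondrial GTPase that begins 340 bases after Paox on the same strand, had 5.60 ± 1.75 CPM in SKO and 6.36 ± 0.937 CPM in wild type (-0.18 ± 0.25, adjusted p = 0.591). Smox, which encodes the oxidase that acts on spermine itself, had 0.363 ± 0.0893 CPM in SKO and 0.309 ± 0.126 CPM in wild type. These rest on 20, 14 and 21 counts in SKO and 16, 12 and 28 counts in wild type. The log2 ratio of Paox to Smox per kb was -3.10, -1.59 and -0.41 in SKO and 1.63, 2.07 and 0.89 in wild type. The groups did not overlap, with a difference of -3.23 (2-sided exact permutation test, p = 0.1, the smallest possible; adjusted p = 0.250). Both genes had few reads, so the size of that difference is uncertain.

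Ratios between the enzymes of synthesis were also taken. The log2 ratio of Odc1 to Amd1 per kb was 5.30 ± 0.08 in SKO and 5.24 ± 0.22 in wild type, and that of Srm to Sms 3.54 ± 0.63 in SKO and 3.52 ± 0.54 in wild type. Neither difference (0.06 and 0.02) exceeded the spread of the libraries (2-sided exact permutation tests, p = 0.8 and 0.9; adjusted p = 0.900 for both). Leaving out 1 library turned the sign of each, with ranges of -0.07 to 0.13 for Odc1 to Amd1 and -0.31 to 0.33 for Srm to Sms.

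Counting all genes that overlap a member or lie next to it in the annotation, 25 were found and 22 tested, of which 11 were called higher and 5 lower in SKO. Over all genes tested, 21.2% were called higher and 20.9% lower. Whether genes near the members differ from other genes was not tested, and the count is given as a description. Riiad1, beside Oaz3 on the same strand, rose to 236 ± 45.5 CPM in SKO, against 142 ± 12.2 CPM in wild type (0.73 ± 0.16, adjusted p = 0.00505). Rbpms2, an RNA-binding protein gene before Oaz2, rose to 12.2 ± 3.35 CPM in SKO, against 5.45 ± 0.570 CPM in wild type (1.16 ± 0.22, adjusted p = 0.00248).

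For Odc1, Srm, Oaz3, Azin1 and Paox, the genes most like each across the 6 libraries were found by Pearson's r of log2 CPM among 7588 genes with at least 5 CPM on average. The points share group and library, so r is high for many genes and is given as a description. Oaz3 was closest to Jagn1 (r = 0.9988), Pbp2 (0.9982) and Cldn34b4 (0.9981), and 606 genes reached 0.95. Srm was closest to Ldhb (0.9935), Zcchc12 (0.9919) and Rwdd4a (0.9914), with 120 genes at 0.95 or more. Azin1 was closest to Sdf2 (0.9973), Saraf (0.9949) and Kansl1 (0.9941), with 97 such genes. Paox was closest to Nrxn3 (0.9955), Pdzk1ip1 (0.9952) and Adarb1 (0.9949), with 143. Odc1 had fewer close companions, with 31 genes at 0.95 or more and Rnf214 (0.9838), Cep126 (0.9812) and Usp1 (0.9796) nearest.

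Beyond the 10 members, 48 genes that supply, move, modify or use polyamines were listed. Of these, 37 were analysed and 36 tested; 3 were higher in SKO, 6 lower and 27 did not pass, with a median log2 fold change of 0.04 against 0.01 for all genes. The shares of all genes called, 21.2% higher and 20.9% lower, are the background for these counts and for those of each list below, and lists this short are described only. Eif5a itself is among the 6. Of the 3 genes tested for acetylation and oxidation, 1 rose. Sat2, a relative of the spermidine and spermine acetyltransferase gene Sat1, had 1.18, 1.04 and 1.03 CPM in SKO and 0.375, 0.119 and 0.353 CPM in wild type (1.93 ± 0.52, adjusted p = 0.0143). The related gene Satl1 was far more abundant, at 40.3 ± 8.52 CPM in SKO and 33.6 ± 1.95 CPM in wild type, and did not pass (adjusted p = 0.261). Sat1 was not analysed here.

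Of 5 transport genes tested, 1 rose and 2 fell. Slc22a3, an organic cation transporter gene, stood at 5.00 ± 1.31 CPM in SKO and 2.46 ± 0.672 CPM in wild type (1.02 ± 0.29, adjusted p = 0.0177); it lost its call under library totals (0.79, adjusted p = 0.0567) and without wild type 2 (0.82, adjusted p = 0.0662). Atp13a4, from the family of membrane ATPases that includes the lysosomal polyamine transporter gene Atp13a2, stood at 0.742 ± 0.289 CPM in SKO and 2.66 ± 0.635 CPM in wild type (-1.84 ± 0.38, adjusted p = 0.00381). Slc3a2, the shared heavy chain of several amino acid exchangers, stood at 16.5 ± 2.27 CPM in SKO and 25.8 ± 3.42 CPM in wild type (-0.65 ± 0.17, adjusted p = 0.0126), a call lost without wild type 3 (-0.54, adjusted p = 0.0632) and under the length and GC correction (-0.21, adjusted p = 0.306). Atp13a2 and Atp13a3 did not pass.

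Of 8 genes tested for the supply of arginine and ornithine, Gatm rose and the other 7 did not pass, with log2 fold changes from -1.56 for Aldh18a1 to 1.24 for Ass1. Gatm, whose enzyme takes the amidino group from arginine for creatine and releases ornithine, had 12.6, 7.76 and 1.31 CPM in SKO and 0, 0.528 and 0 CPM in wild type (5.36 ± 1.18, adjusted p = 0.00534). The size of that fold rests on wild type 2, the one wild-type library with reads (31 counts), and the fitted value without it, 11.63, depends on the prior count and is no estimate of size. Its SKO libraries ranked as the summed Sertoli cell markers did, from SKO 1 down to SKO 3, and the call was lost in DESeq2 (adjusted p = 0.0553) and limma-voom (adjusted p = 0.0824). Slc25a2, a mitochondrial ornithine carrier gene, was the most abundant of the list, at 180.0 ± 21.8 CPM in SKO and 204 ± 12.7 CPM in wild type (adjusted p = 0.315).

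Of 9 genes for S-adenosylmethionine and the salvage of methylthioadenosine, the by-product of both aminopropyl transfers, 1 fell. Ahcy, which clears S-adenosylhomocysteine, stood at 20.0 ± 4.73 CPM in SKO and 30.2 ± 3.05 CPM in wild type (-0.60 ± 0.19, adjusted p = 0.0311). Its call was lost without SKO 2 or any 1 wild-type library (adjusted p = 0.0555 to 0.111) and under the length and GC correction (-0.26). Mat2a, which encodes the catalytic subunit that makes S-adenosylmethionine outside liver, stood at 17.0 ± 2.79 CPM in SKO and 14.6 ± 2.02 CPM in wild type (adjusted p = 0.361). The Myc network is known to act on Odc1 transcription. Of its 7 genes listed, 4 were tested (Max, Mxd1, Mxi1 and Mnt), while Myc, Mycn and Mycl were not analysed here. Mxd1 fell to 46.0 ± 5.67 CPM in SKO, against 64.1 ± 1.04 CPM in wild type (-0.48 ± 0.14, adjusted p = 0.0214), and the others tested did not pass. Mxd1 encodes a partner of MAX that opposes MYC. It lost its call without SKO 2 or any 1 wild-type library (adjusted p = 0.0538 to 0.0788), with the replicate block (0.0586) and under the length and GC correction (-0.12).

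Of the 2 genes listed for proteins known to bind antizyme 3, 1 fell. Ggn, the gametogenetin gene of haploid germ cells, had 26.6, 15.2 and 35.1 CPM in SKO and 52.1, 51.1 and 39.1 CPM in wild type (-0.89 ± 0.27, adjusted p = 0.0251). The groups did not overlap, although SKO 3 and wild type 3 were close, and the call was lost without SKO 1 (adjusted p = 0.0570), wild type 1 (0.0774) or wild type 2 (0.0850) and under the length and GC correction (-0.27, adjusted p = 0.246). Ppp1r16a, a regulatory subunit gene of protein phosphatase 1, had 14.0 ± 3.55 CPM in SKO and 21.2 ± 6.53 CPM in wild type and did not pass (-0.60 ± 0.25, adjusted p = 0.0842). Dhps and Dohh, whose enzymes together build hypusine on EIF5A, stood at 7.82 ± 1.27 and 7.54 ± 1.65 CPM in SKO and at 6.38 ± 0.975 and 6.97 ± 0.314 CPM in wild type, and neither passed (adjusted p = 0.275 and 0.685).

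**Figure D5:**
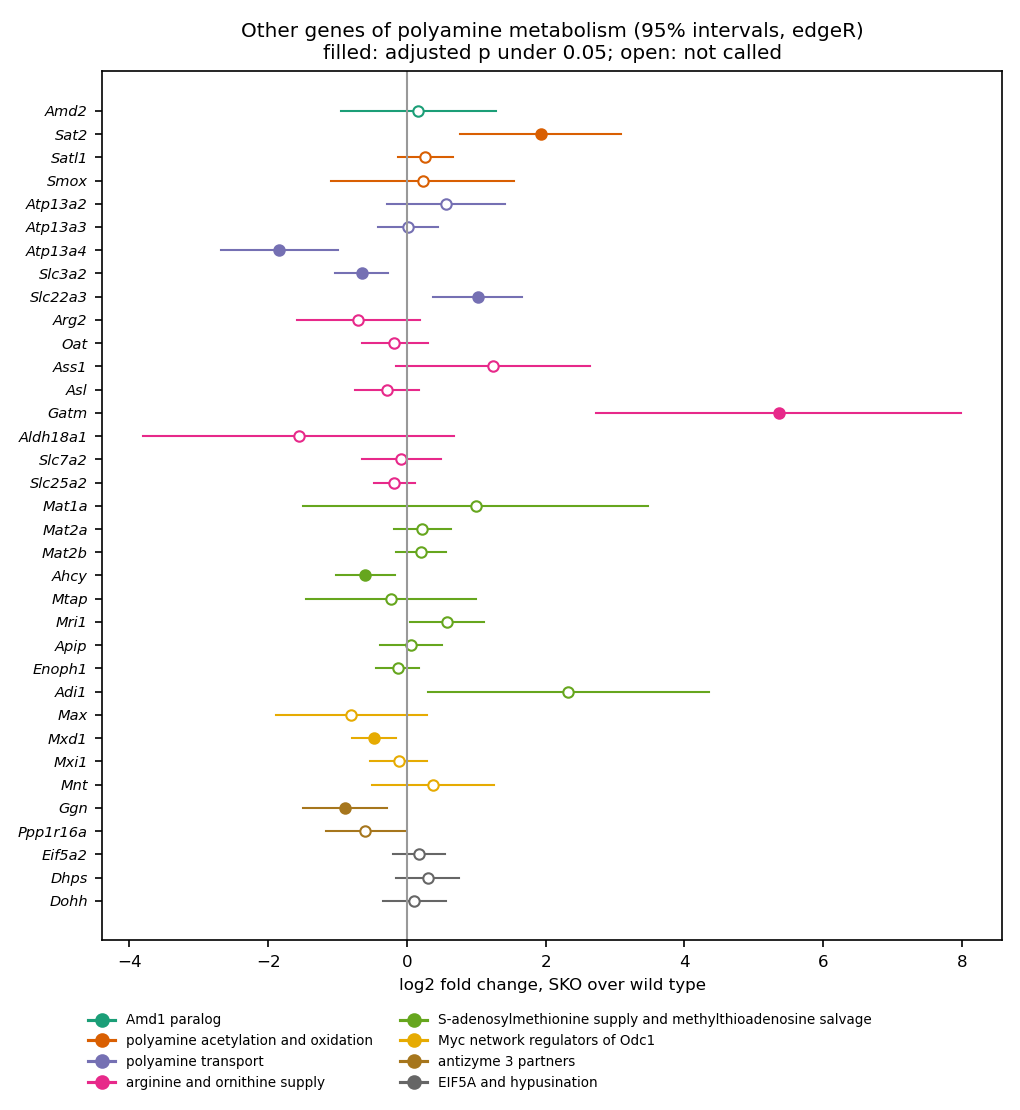
Log2 fold change, SKO over wild type, with 95% intervals from edgeR for the 35 other tested genes of polyamine metabolism (Eif5a, at -6.74, is not drawn); colours give the list and filled points have an adjusted p under 0.05. Sat2, Slc22a3 and Gatm lie to the right of 0 as filled points, and Atp13a4, Slc3a2, Ahcy, Mxd1 and Ggn to the left.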

How the data were processed

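The deposited table holds the authors' unnormalised counts of reads for each gene in each of the 6 libraries. The tools named in the submitters' processing notes are featureCounts 1.5.0-p3, HISAT2 2.0.5, Trim Galore 0.6.4 and FastQC, and the build is GRCm38. No source used here gives the annotation release, the strand setting or how multi-mapping reads were treated. Columns were joined to samples by genotype and replicate number. Gene positions, lengths and sequences came from GENCODE M21, which matched 22023 of 22770 rows.

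edgeR 4.0.16 (R 4.3.3) was run with filterByExpr (minimum counts 10 and 15), TMM factors and the group as the only term, on 19776 genes. SEs are from the quasi-likelihood test. The script was tested on simulated counts with few changed genes, as many up as down. That test cannot check TMM scaling where many genes change. CPM use TMM-scaled totals. PCR reads without molecular identifiers are not independent molecules, so the number of reads can understate the counting error. Replicates differed beyond sampling noise and were kept apart. The text names all 10 members, every called gene of the fixed pathway lists, the 3 nearest genes by likeness, and overlapping or adjacent genes, the last in part as a count. Members and lists were chosen with earlier results of these data known.

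Alternatives were DESeq2 1.42.0, scaling by its size factors, by upper quartiles or by library totals, no filter, at least 5 CPM in 3 libraries, limma-voom (limma 3.58.1), thresholds of 0.01 and 0.1, a replicate block, a loess correction for length and GC content, and each library left out. Adding reads of listed copies to a member was chosen after seeing the data.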

Additional observations from a re-analysis of the deposited data

How the results depend on the processing

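Over all genes, 4185 were higher and 4127 lower in SKO, an even split that library totals turned to 2831 and 5666. At an adjusted p under 0.01 these were 2611 and 2553, and at least 5 CPM in 3 libraries left 2727 lower. Leaving out each library in turn gave 3100 to 4324 higher and 3026 to 4770 lower. The members called higher went to 6 with the length and GC correction and 5 at an adjusted p under 0.1, and ran from 2 to 4 with a library left out. No member was called lower with at least 5 CPM in 3 libraries, a filter that leaves out Paox and Sms. Pathway genes called higher, 3 in the main comparison, were 0 with at least 5 CPM in 3 libraries, 6 with the length and GC correction, 1 at 0.01 and 5 at 0.1, and 2 to 4 with a library left out. Those called lower, 6 in the main comparison, were 2 with the length and GC correction, 2 at 0.01, and 3 to 7 with a library left out. Library totals turned Odc1 to -0.01, Amd1 to -0.07 and Azin2 to -0.18. Leaving out a library gave Azin2 -0.09 to 0.09, the log2 ratio of Oaz3 to Oaz1 0.16 to 0.49, that of Srm to Sms -0.31 to 0.33 and that of Odc1 to Amd1 -0.07 to 0.13. The cause of these changes was not tested. Same-numbered SKO and wild-type libraries did not deviate together (correlations of -0.022, -0.051 and -0.065). That check shows no large shared deviation and cannot tell whether the libraries were paired by design. With the replicate block 3552 genes were higher and 3666 lower, and the same 4 members were called. The values of Paox and Sms rest on at most 111 and 242 counts per library.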
